A study of Mus musculus with 40 samples.

Results

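The genes described here are 10 feedback genes of the ERK pathway: the phosphatase genes Dusp4, Dusp5 and Dusp6, the Sprouty genes Spry1, Spry2 and Spry4, the Spred genes Spred1 and Spred2, and the ETS transcription factor genes Etv4 and Etv5. They were chosen by name and function, with earlier results of these data known. A peak was counted at a gene when the nearest start site of any protein-coding gene in the mouse build mm10 belonged to that gene and lay within 50 kb. By that rule 1219 of 773134 peaks in 12 deposited lists were at the 10 genes, out of 21827 protein-coding genes. Merged over lists, they formed 92 of 71518 H3K27ac regions and 266 of 181776 H3K4me1 regions. On the plus strand, start sites lie at 34807297 on chromosome 8 for Dusp4, 53529109 on chromosome 19 for Dusp5, 99263231 on chromosome 10 for Dusp6, 37639947 to 37640080 on chromosome 3 for Spry1, 117121374 and 117121638 on chromosome 2 for Spred1, and 19924375 and 19924442 on chromosome 11 for Spred2. On the minus strand they lie at 105896819 on chromosome 14 for Spry2, on chromosome 18 for Spry4, at 101785310 and 101785371 on chromosome 11 for Etv4, and at 22436514 and 22439719 on chromosome 16 for Etv5.

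Receptor tyrosine kinases such as FLT3 and KIT signal through RAS, RAF and MEK to the kinase ERK, and ERK in turn induces genes whose products shut the pathway down. DUSP proteins remove the activating phosphates from ERK, Sprouty proteins act between receptor and RAF, and SPRED proteins bring the RAS inhibitor neurofibromin to the membrane. ETV4 and ETV5 are transcription factors whose genes are themselves induced by ERK, and transcripts of this group are widely used as a readout of ERK activity. H3K27ac marks active promoters and enhancers, and H3K4me1 marks enhancers whether or not they are active.

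Both marks were mapped by ChIPmentation, in which the transposase Tn5 adds sequencing adapters to immunoprecipitated chromatin. The cells were haematopoietic stem and progenitor cells sorted from 21-day-old mice. Of 40 samples, 39 carried a mark and fell into 12 groups of 3 or 4 by genotype and mark. The groups were Flt3-ITD/NUP98-HOXD13 (4 samples for each mark), Flt3-ITD/Runx1-het (3 each), Flt3-ITD (3 each), NUP98-HOXD13 (4 for H3K27ac, 3 for H3K4me1), Runx1-het (3 each) and wild type (WT, 3 each). Flt3-ITD is an internal tandem duplication that leaves the FLT3 kinase active without ligand. NUP98-HOXD13 joins part of the nuclear pore protein NUP98 to the homeobox factor HOXD13. Runx1-het is the genotype label for animals whose source names read Runxf and Vav, names used for a floxed Runx1 allele and for transgenes driven in blood cells by Vav1 sequences. The promoters behind the other alleles, and whether animals were pooled within a sample, are not stated by the labels.

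Each group gave 1 peak list, pooled over its samples. No value per animal was used, so the spread between animals was not measured, no difference between genotypes was tested, and no p-value is given. The depth of the lists is unknown. The number of peaks ran between 31978 and 43363 for H3K27ac and between 72682 and 117039 for H3K4me1. The median H3K27ac peak was 586 to 888 bp wide in the mutant lists, against 389 bp in WT. In the NUP98-HOXD13 H3K4me1 list 92.8% of peaks had a −log10 q under 5, against 66.0 to 82.5% in the other lists. A peak missing from a list can stand for fewer cells that carry the mark or for less signal per cell, and these cannot be told apart. Promoter H3K27ac was found at 7 or 8 of 8 stem and progenitor marker genes in every list, beside 39.4 to 46.2% of all genes. It was found at none of the T cell, monocyte, erythroid or non-blood markers examined, and at 1 of 4 granulocyte markers (Mpo) in every list. Of the 4 erythroid markers, 3 were in the annotation. The megakaryocyte markers had 3 of 4 in every list except Runx1-het, with 1.

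The promoters of 4 genes are shown, Dusp6 and Spred2 because they ranked high in H3K27ac, Dusp5 because it had the most regions, and Etv5 because its promoter peaks differed between lists. The sequences are RefSeq promoter windows of build GRCm38.p6, 300 bases each, running from 250 bases before the start site. They are written 5′ to 3′ on the strand of the gene, in lower case, and capitals mark matches to the ETS core GGAAGT on either strand (ACTTCC on the opposite one). The windows lie at chr19:53528895-53529194 on the plus strand for Dusp5, chr10:99262981-99263280 plus for Dusp6, chr11:19924192-19924491 plus for Spred2, and chr16:22439521-22439820 minus and chr16:22438319-22438618 minus for the upstream and downstream windows of Etv5. The RefSeq start sites need not be those used to assign peaks, and the downstream Etv5 window lies between the 2 start sites given above.
Dusp5: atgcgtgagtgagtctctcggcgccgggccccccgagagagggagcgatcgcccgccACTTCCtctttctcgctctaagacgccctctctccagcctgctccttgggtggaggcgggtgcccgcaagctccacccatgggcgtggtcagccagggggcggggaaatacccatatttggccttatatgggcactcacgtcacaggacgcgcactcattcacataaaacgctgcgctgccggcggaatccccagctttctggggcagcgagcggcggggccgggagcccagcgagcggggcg
Dusp6: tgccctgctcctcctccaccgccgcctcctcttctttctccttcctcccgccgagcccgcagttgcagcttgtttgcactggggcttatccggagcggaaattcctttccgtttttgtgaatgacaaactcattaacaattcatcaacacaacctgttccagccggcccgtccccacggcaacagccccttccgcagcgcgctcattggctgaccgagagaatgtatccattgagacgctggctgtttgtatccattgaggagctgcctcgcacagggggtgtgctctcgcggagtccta
Spred2: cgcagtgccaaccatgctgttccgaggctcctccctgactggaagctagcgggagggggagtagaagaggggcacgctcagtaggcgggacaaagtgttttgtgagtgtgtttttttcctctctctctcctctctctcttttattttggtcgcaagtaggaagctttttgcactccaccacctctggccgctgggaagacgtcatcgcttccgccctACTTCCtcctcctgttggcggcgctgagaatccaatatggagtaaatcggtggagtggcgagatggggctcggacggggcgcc
Etv5 upstream: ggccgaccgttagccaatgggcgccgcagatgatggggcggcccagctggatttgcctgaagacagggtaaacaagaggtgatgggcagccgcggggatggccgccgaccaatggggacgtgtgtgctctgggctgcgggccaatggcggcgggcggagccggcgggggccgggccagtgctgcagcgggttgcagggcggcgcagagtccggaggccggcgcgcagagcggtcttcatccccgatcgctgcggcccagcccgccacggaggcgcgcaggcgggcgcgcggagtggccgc
Etv5 downstream: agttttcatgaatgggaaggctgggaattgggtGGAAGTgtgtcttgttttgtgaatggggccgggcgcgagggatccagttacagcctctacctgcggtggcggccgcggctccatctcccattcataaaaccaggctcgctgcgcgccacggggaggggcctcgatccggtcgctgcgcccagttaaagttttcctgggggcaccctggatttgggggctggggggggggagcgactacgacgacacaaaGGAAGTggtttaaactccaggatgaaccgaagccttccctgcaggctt
The table held 8 such windows for 7 of the 10 genes. The ETS core matched at offset -193 in Dusp5, at -33 in Spred2, and at -217 and 2 in the downstream Etv5 window, counting the start site as 0. Of all 32851 mouse promoter windows, 23.8% held a match. The other motifs searched on both strands were TTCNNNGAA (STAT), TGANTCA (AP-1), TGTGGT (RUNX), TGATTNAT (PBX-HOX) and TGACGTCA (CRE), held by 8.30%, 7.81%, 16.8%, 3.22% and 1.79% of all windows, and none of the 8 windows held one. The GC content of the 8 windows ran between 57.0 and 74.0%, against a median of 52.7% over all windows. A match is a description of letters and not of binding.

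Most of the feedback genes had an acetylated promoter in every genotype. A promoter peak was any H3K27ac peak within 1 kb of a start site. The promoter was marked in 9 of the 10 genes in Flt3-ITD/NUP98-HOXD13, 9 in NUP98-HOXD13, 8 in Flt3-ITD/Runx1-het, 7 in Runx1-het, 8 in Flt3-ITD and 8 in WT. Of all protein-coding genes, the shares marked were 45.5% in Flt3-ITD/NUP98-HOXD13, 45.2% in NUP98-HOXD13, 46.2% in Flt3-ITD/Runx1-het, 39.4% in Runx1-het, 43.0% in Flt3-ITD and 39.4% in WT. The 7 genes Dusp4, Dusp5, Dusp6, Spry1, Spry2, Spred1 and Spred2 were marked in all 6 lists, as were 35.2% of all genes. Etv4 was marked in none, as were 50.5% of all genes. Etv5 and Spry4 were the 2 genes that differed between lists.

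The level of a promoter is given as the fold enrichment that the authors' peak caller gave the peak, a value of that peak, and as its percentile among all marked promoters of the same list. Ranks from lists of different lengths do not show a change between genotypes.

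**Figure D1:**
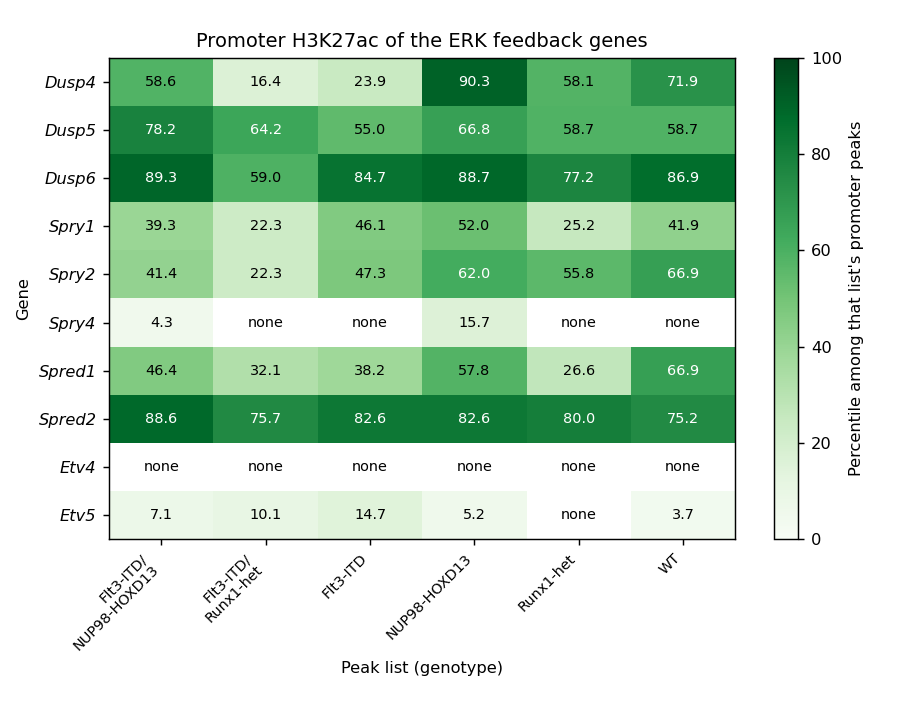
H3K27ac at the promoters of the 10 genes (rows) in the 6 peak lists (columns). Each cell gives the percentile of the gene's strongest promoter peak, by fold enrichment, among the marked promoters of that list; "none" means no peak within 1 kb of a start site. Dusp6 and Spred2 sit high in most lists, between 59.0 and 89.3, Etv5 low where it is marked, between 3.7 and 14.7, and Spry4 is marked in the Flt3-ITD/NUP98-HOXD13 and NUP98-HOXD13 lists.

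Dusp6, whose product is a cytoplasmic phosphatase selective for ERK, had the strongest promoter of the 3 DUSP genes in 4 of the 6 lists. Its promoter fold enrichment was 26.2 in Flt3-ITD/NUP98-HOXD13, 19.3 in NUP98-HOXD13, 11.4 in Flt3-ITD/Runx1-het, 15.8 in Runx1-het, 20.5 in Flt3-ITD and 15.5 in WT. In all 6 lists the summit lay between 1406 and 1613 bp upstream of the start site, outside the printed window. The percentile among marked promoters was lowest in Flt3-ITD/Runx1-het (59.0) and between 77.2 and 89.3 elsewhere.

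The nuclear ERK phosphatase gene Dusp5 had promoter fold enrichments of 18.9 in Flt3-ITD/NUP98-HOXD13, 11.8 in NUP98-HOXD13, 12.5 in Flt3-ITD/Runx1-het, 10.6 in Runx1-het, 10.4 in Flt3-ITD and 8.62 in WT. All 6 peaks covered the printed window. They spanned 2581 to 2969 bp in the mutant lists, against 1494 bp in WT, where another peak lay 1224 to 1538 bp downstream of the start site. The percentiles stayed between 55.0 and 78.2.

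Dusp4 encodes a nuclear phosphatase of ERK and related kinases. Its promoter fold enrichment was 12.8 in Flt3-ITD/NUP98-HOXD13, 20.5 in NUP98-HOXD13, 5.13 in Flt3-ITD/Runx1-het, 10.5 in Runx1-het, 5.76 in Flt3-ITD and 10.9 in WT. This gave the widest range of percentiles among the 7 genes marked in every list: 58.6 in Flt3-ITD/NUP98-HOXD13, 90.3 in NUP98-HOXD13, 16.4 in Flt3-ITD/Runx1-het, 58.1 in Runx1-het, 23.9 in Flt3-ITD and 71.9 in WT. The strongest promoter peak spanned 509 bp in Flt3-ITD/Runx1-het and 652 bp in Flt3-ITD, against 2966 bp in Flt3-ITD/NUP98-HOXD13, 4329 bp in NUP98-HOXD13, 2116 bp in Runx1-het and 913 bp in WT. These are widths of single peaks, and some lists split the stretch. WT had further peaks from -2581 to -1683 bp and from -1597 to -1219 bp of the start site, and Flt3-ITD had another from -2214 to -1717 bp.

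Among the Sprouty genes, whose products inhibit signalling from growth factor receptors, Spry1 and Spry2 had mid-ranking promoters. Spry1 had fold enrichments of 8.74 in Flt3-ITD/NUP98-HOXD13, 9.05 in NUP98-HOXD13, 5.84 in Flt3-ITD/Runx1-het, 5.98 in Runx1-het, 8.85 in Flt3-ITD and 6.65 in WT, at percentiles between 22.3 and 52.0. Spry2 had 9.13 in Flt3-ITD/NUP98-HOXD13, 10.8 in NUP98-HOXD13, 5.84 in Flt3-ITD/Runx1-het, 10.0 in Runx1-het, 9.03 in Flt3-ITD and 9.94 in WT, at percentiles between 22.3 and 66.9. Spry2 carried 2 promoter regions in all 6 lists, chr14:105893936-105897182 across the start site and chr14:105897235-105899059 just upstream.

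Spry4 was the gene whose promoter acetylation followed the fusion. Its promoter had a peak of fold enrichment 3.65 in Flt3-ITD/NUP98-HOXD13 and 4.63 in NUP98-HOXD13, and no peak in Flt3-ITD/Runx1-het, Flt3-ITD, Runx1-het or WT. The region was 621 bp wide, with its middle 0.3 kb downstream of the start site on chromosome 18. Promoters marked in both fusion lists and in no other numbered 94 of 21827 genes, 0.431%. Both Spry4 peaks were weak, with −log10 q of 3.08 in Flt3-ITD/NUP98-HOXD13 and 4.38 in NUP98-HOXD13, and neither remained when peaks with a −log10 q under 5 were left out. Among marked promoters they ranked at percentile 4.3 in Flt3-ITD/NUP98-HOXD13 and 15.7 in NUP98-HOXD13. NUP98-HOXD13 held a second, weaker promoter region at Spry4, 0.8 kb downstream, with a fold enrichment of 2.99. Among all H3K27ac peaks of the list they ranked at percentile 28.5 in Flt3-ITD/NUP98-HOXD13 and 57.8 in NUP98-HOXD13. On that scale of all peaks, with an unmarked promoter set to 0, the 3 genes nearest to Spry4 over the 6 lists were Adarb1, Alas1 and Cbarp, with mean absolute differences of 0.451, 0.774 and 0.795 percentile points.

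The Spred genes were marked in every list. Spred2 had promoter fold enrichments of 25.4 in Flt3-ITD/NUP98-HOXD13, 16.1 in NUP98-HOXD13, 15.6 in Flt3-ITD/Runx1-het, 17.0 in Runx1-het, 19.3 in Flt3-ITD and 11.6 in WT. With percentiles between 75.2 and 88.6, it kept the narrowest range of the 7 genes. Spred1 had 10.0 in Flt3-ITD/NUP98-HOXD13, 10.1 in NUP98-HOXD13, 7.09 in Flt3-ITD/Runx1-het, 6.13 in Runx1-het, 7.62 in Flt3-ITD and 9.94 in WT, at percentiles between 26.6 and 66.9.

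The ETS factor genes had weak or unmarked promoters. Etv5 had fold enrichments of 4.05 in Flt3-ITD/NUP98-HOXD13, 3.55 in NUP98-HOXD13, 4.42 in Flt3-ITD/Runx1-het, 4.73 in Flt3-ITD and 3.35 in WT, and no promoter peak in Runx1-het. The peaks were not at 1 place. In the 4 mutant lists they lay at or just upstream of the upstream start site (chr16:22439572-22440561), and in WT the summit lay 702 bp downstream of the other start site (chr16:22435559-22435893). The upstream region was therefore marked in Flt3-ITD/NUP98-HOXD13, Flt3-ITD/Runx1-het, Flt3-ITD and NUP98-HOXD13, and in neither Runx1-het nor WT. With peaks of −log10 q of at least 5 alone, the Flt3-ITD list was the one that kept an Etv5 promoter peak. On the scale of all peaks of a list, where Etv5 ranked between percentile 15.9 in WT and 54.9 in Flt3-ITD, the nearest genes over the 6 lists were Nptn, S100a5 and Khk, with mean absolute differences of 4.66, 5.33 and 5.36 percentile points. Etv4 had no H3K27ac region within 50 kb in any list.

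H3K4me1 within 1 kb of a start site was found at 1 to 3 of the 10 genes in each list. Of the 10 genes, 2 were marked within 1 kb in Flt3-ITD/NUP98-HOXD13, 1 in NUP98-HOXD13, 3 in Flt3-ITD/Runx1-het, 1 in Runx1-het, 1 in Flt3-ITD and 3 in WT. The shares of all genes were 30.3% in Flt3-ITD/NUP98-HOXD13, 28.7% in NUP98-HOXD13, 30.1% in Flt3-ITD/Runx1-het, 20.7% in Runx1-het, 27.9% in Flt3-ITD and 20.8% in WT. The 10 genes were near that share in Flt3-ITD/Runx1-het, above it in WT and below it in the other lists. Etv5 was marked in all 6 lists, at fold enrichments between 3.69 and 5.73, though not at 1 place. In WT the summit lay 951 bp upstream of the downstream Etv5 start site. In the mutant lists it lay 715 to 784 bp downstream of that start site. Spry4 was marked in Flt3-ITD/NUP98-HOXD13 and WT, Dusp6 in Flt3-ITD/Runx1-het and WT, and Dusp4 in Flt3-ITD/Runx1-het. Within 2 kb the counts were 6 in Flt3-ITD/NUP98-HOXD13, 4 in NUP98-HOXD13, 4 in Flt3-ITD/Runx1-het, 5 in Runx1-het, 5 in Flt3-ITD and 3 in WT, where the shares of all genes were 42.9% in Flt3-ITD/NUP98-HOXD13, 42.2% in NUP98-HOXD13, 44.7% in Flt3-ITD/Runx1-het, 33.6% in Runx1-het, 41.2% in Flt3-ITD and 33.9% in WT.

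Away from promoters the genes carried 79 H3K27ac and 259 H3K4me1 regions. Of the H3K27ac ones, 48 lay between genes, 25 in introns and 6 over an exon. Of the H3K4me1 ones, 146 lay between genes, 91 in introns and 22 over an exon. At the edge of the 50 kb window, the last H3K27ac region inside was at Spred1, 49525 bp from the start site with a fold enrichment of up to 5.65, and the first outside was also at Spred1, at 50574 bp and 5.65. Another 40 H3K27ac and 115 H3K4me1 regions had a feedback gene as the nearest gene between 50 and 100 kb.

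**Figure D2:**
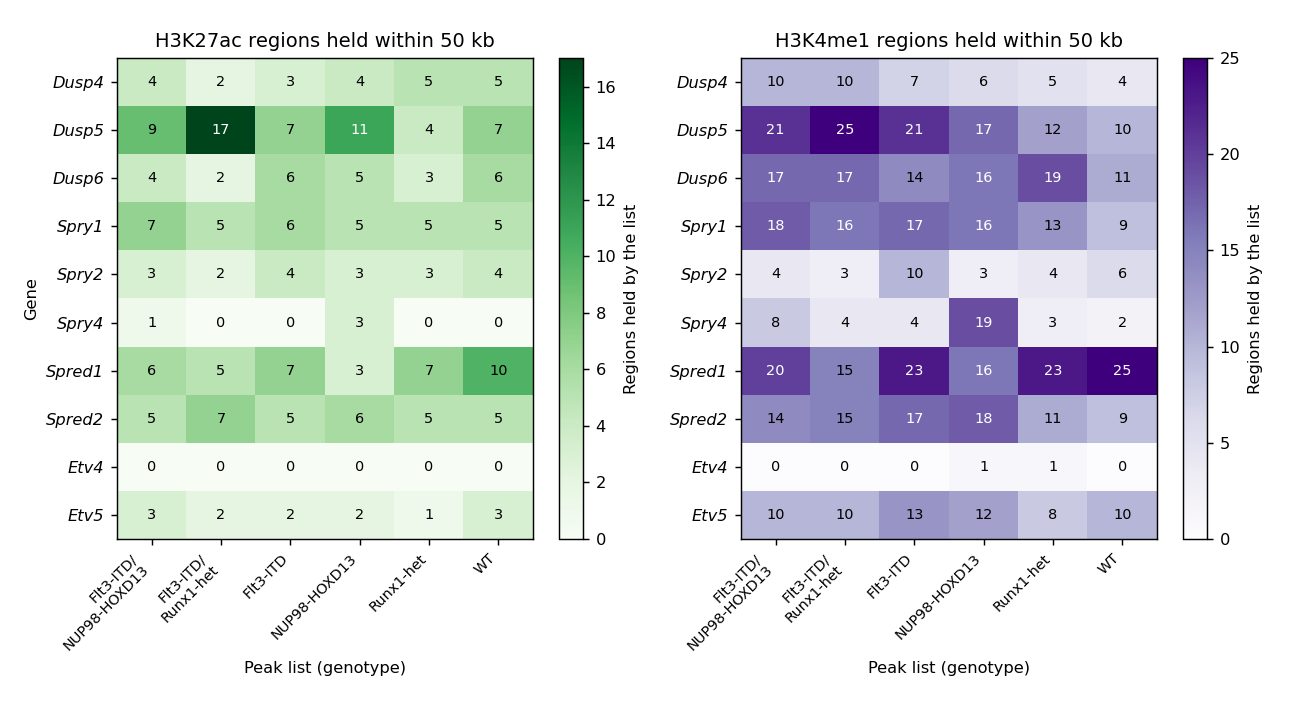
Number of H3K27ac regions (left panel) and H3K4me1 regions (right panel) within 50 kb that each peak list (columns) held at each gene (rows); darker cells hold more. Dusp5 reaches 17 H3K27ac regions in Flt3-ITD/Runx1-het against 4 in Runx1-het, Spry4 reaches 19 H3K4me1 regions in NUP98-HOXD13 against 2 in WT, and Spred1 has its highest counts in WT, 10 and 25.

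Several distal regions were held by all 6 lists. One of the strongest was 35.2 kb upstream of Spry1 between genes (chr3:37602586-37606979). Its H3K27ac fold enrichment was 9.52 in Flt3-ITD/NUP98-HOXD13, 7.03 in NUP98-HOXD13, 9.76 in Flt3-ITD/Runx1-het, 10.8 in Runx1-het, 10.7 in Flt3-ITD and 10.9 in WT. In 5 of the 6 lists it was higher than the Spry1 promoter itself, and the H3K4me1 region at the same place had a mean within-list percentile of 99.0. Spry1 had 2 more distal H3K27ac regions in all 6 lists, 23.0 kb upstream (chr3:37615631-37618317) and 27.1 kb downstream (chr3:37665861-37668460).

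The other genes, except Spry2, Spry4 and Etv4, also had distal H3K27ac regions in all 6 lists, and the highest-ranking one is given for each. They lay 49.1 kb upstream of Dusp5 (chr19:53478872-53481066), 20.9 kb upstream of Dusp6 (chr10:99240739-99243939), 15.7 kb upstream of Spred1 (chr2:117104286-117107027), 4.1 kb upstream of Spred2 (chr11:19919243-19921399), and 37.4 kb downstream of the Etv5 start site over one of its exons (chr16:22398046-22400146). The one assigned to Dusp4, 42.4 kb downstream (chr8:34848511-34850947), lay over an exon of Tnks, which encodes tankyrase. The Etv5 region had fold enrichments between 7.01 and 10.6, above the Etv5 promoter in each list where that was marked. The region 26.0 kb upstream of Spry2 (chr14:105921851-105923721) was held by 5 lists and not by Flt3-ITD/Runx1-het. Spry4 had no distal H3K27ac region outside NUP98-HOXD13, where 1 lay 30.8 kb upstream with a fold enrichment of 3.11. Etv4 had 1 region of either mark, an H3K4me1 region 4.8 kb upstream (chr11:101789935-101790308) held by NUP98-HOXD13 and Runx1-het.

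Dusp5 had the most H3K27ac regions of the 10 genes, and their number differed most between lists. It held 9 in Flt3-ITD/NUP98-HOXD13, 11 in NUP98-HOXD13, 17 in Flt3-ITD/Runx1-het, 4 in Runx1-het, 7 in Flt3-ITD and 7 in WT. Peaks there covered 17186 bp in Flt3-ITD/Runx1-het, against 6523 bp in Runx1-het and 4388 bp in WT. Against Runx1-het, the Flt3-ITD/Runx1-het list gained 13 H3K27ac regions at Dusp5 and lost 0, where 37.6% of all regions in either list were gained and 20.5% lost. The difference was smaller with lists cut to the same number of strongest peaks, 10 regions in Flt3-ITD/Runx1-het and 4 in Runx1-het, and at a −log10 q of at least 5, with 7 in Flt3-ITD/Runx1-het and 3 in Runx1-het. In 8 of its 17 regions the Flt3-ITD/Runx1-het list was alone, at fold enrichments between 2.59 and 5.46. They lay 31.9, 32.7 and 33.9 kb upstream, 9.9 and 10.4 kb downstream in an intron, and 13.9, 24.5 and 29.7 kb downstream beyond the gene.

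For H3K4me1, Dusp5 had its highest counts in the 3 lists with Flt3-ITD. The gene held 21 H3K4me1 regions in Flt3-ITD/NUP98-HOXD13, 17 in NUP98-HOXD13, 25 in Flt3-ITD/Runx1-het, 12 in Runx1-het, 21 in Flt3-ITD and 10 in WT. Flt3-ITD gained 11 and lost 0 against WT, where 40.5% of all regions were gained and 23.7% lost. With equal-length lists the counts were 15 in Flt3-ITD/NUP98-HOXD13, 13 in NUP98-HOXD13, 18 in Flt3-ITD/Runx1-het, 12 in Runx1-het, 15 in Flt3-ITD and 10 in WT. At a −log10 q of at least 5 they were 8 in Flt3-ITD/NUP98-HOXD13, 1 in NUP98-HOXD13, 9 in Flt3-ITD/Runx1-het, 6 in Runx1-het, 8 in Flt3-ITD and 7 in WT. The Dusp5 H3K4me1 peaks that overlapped an H3K27ac peak of the same genotype made up 46.4% in Flt3-ITD/NUP98-HOXD13, 44.0% in NUP98-HOXD13, 51.4% in Flt3-ITD/Runx1-het, 27.8% in Runx1-het, 26.9% in Flt3-ITD and 25.0% in WT.

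**Figure D3:**
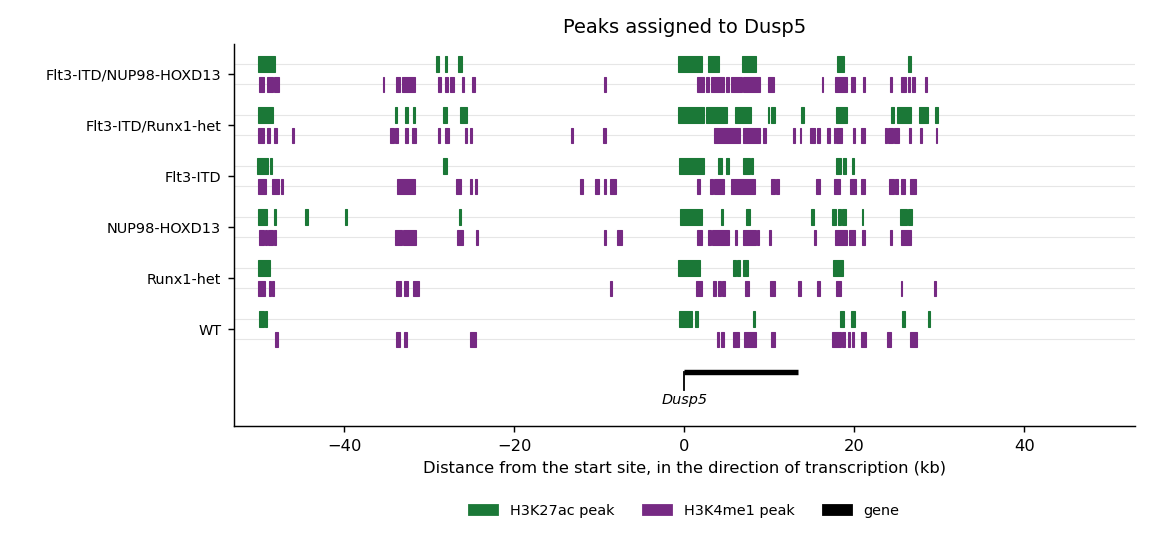
Peaks assigned to Dusp5 by distance from its start site in kb, in the direction of transcription, with 1 row per peak list; green boxes are H3K27ac peaks, purple boxes H3K4me1 peaks, drawn to scale, and the black bar is the gene. Flt3-ITD/Runx1-het holds 17 H3K27ac regions and Runx1-het 4, and the promoter is marked in both.

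At the other DUSP genes the H3K27ac counts were lower. Dusp4 held 4 regions in Flt3-ITD/NUP98-HOXD13, 4 in NUP98-HOXD13, 2 in Flt3-ITD/Runx1-het, 5 in Runx1-het, 3 in Flt3-ITD and 5 in WT. Dusp6 held 4 in Flt3-ITD/NUP98-HOXD13, 5 in NUP98-HOXD13, 2 in Flt3-ITD/Runx1-het, 3 in Runx1-het, 6 in Flt3-ITD and 6 in WT. Flt3-ITD/Runx1-het thus had the fewest regions at both Dusp4 and Dusp6 and the most at Dusp5. For H3K4me1, Dusp4 held 10 regions in both double mutants, 5 to 7 in the single mutants and 4 in WT. Dusp6 held 14 to 19 in the mutants, most in Runx1-het, and 11 in WT.

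Spry4 differed most in H3K4me1. It held 8 H3K4me1 regions in Flt3-ITD/NUP98-HOXD13, 19 in NUP98-HOXD13, 4 in Flt3-ITD/Runx1-het, 3 in Runx1-het, 4 in Flt3-ITD and 2 in WT. They covered 8017 bp in NUP98-HOXD13, against 739 bp in WT. Against WT, NUP98-HOXD13 gained 18 and lost 1, where 39.7% of all regions were gained and 28.4% lost. Against NUP98-HOXD13, the double mutant Flt3-ITD/NUP98-HOXD13 gained 3 and lost 14, where 32.1% of all regions were gained and 25.1% lost. Of the 19 regions, 13 were in the NUP98-HOXD13 list alone, at fold enrichments between 2.76 and 4.60. Equal-length lists left 5 regions in Flt3-ITD/NUP98-HOXD13, 15 in NUP98-HOXD13 and 2 in WT. At a −log10 q of at least 5 each of these 3 lists had 1 region left. The part of peak significance in the count was not tested. The region common to all 6 lists lay in an intron 8.5 kb downstream of the start site, with fold enrichments between 4.08 and 6.47.

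Spred1 held the most regions in WT, though its peaks did not cover the most sequence there. For H3K27ac it held 6 in Flt3-ITD/NUP98-HOXD13, 3 in NUP98-HOXD13, 5 in Flt3-ITD/Runx1-het, 7 in Runx1-het, 7 in Flt3-ITD and 10 in WT. NUP98-HOXD13 gained 0 and lost 7 against WT, where 34.5% of all regions were lost. Flt3-ITD/Runx1-het gained 0 and lost 5 against WT, where 28.5% were lost. WT alone held 4 of its 10 regions, at fold enrichments between 2.58 and 4.01. With equal-length lists NUP98-HOXD13 held 3 and WT held 7, and at a −log10 q of at least 5 NUP98-HOXD13 held 1 and WT held 2. For H3K4me1 it held 20 in Flt3-ITD/NUP98-HOXD13, 16 in NUP98-HOXD13, 15 in Flt3-ITD/Runx1-het, 23 in Runx1-het, 23 in Flt3-ITD and 25 in WT. H3K27ac peaks at Spred1 covered 11643 bp in Flt3-ITD and 10434 bp in Runx1-het, against 8883 bp in WT and less in the other lists. H3K4me1 peaks covered 23193 bp in Flt3-ITD and 20636 bp in Runx1-het, against 19221 bp in WT and less in the other lists.

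**Figure D4:**
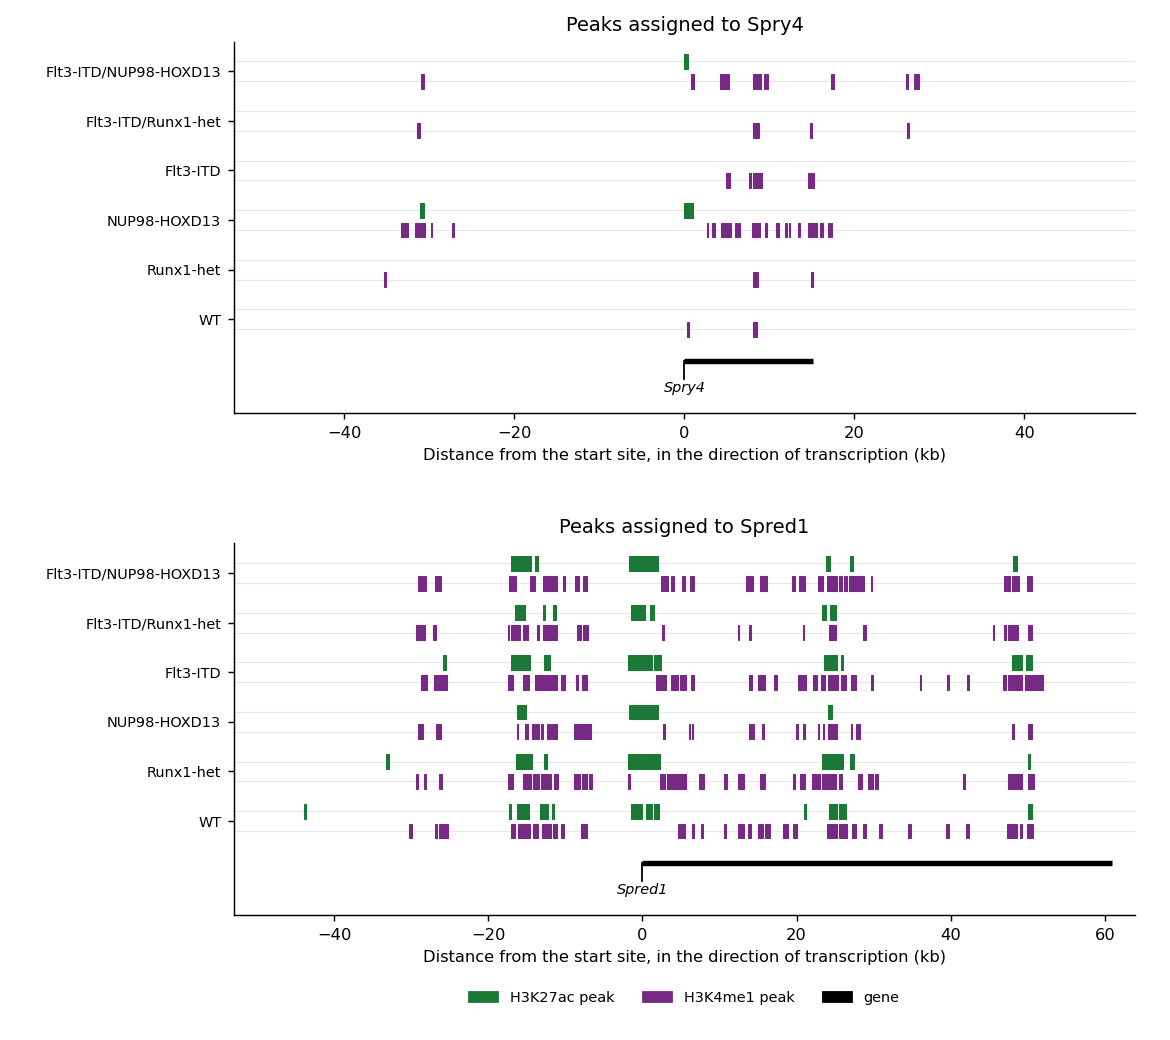
Peaks assigned to Spry4 (upper panel) and Spred1 (lower panel) by distance from the start site in kb, in the direction of transcription, with 1 row per peak list; green boxes are H3K27ac peaks, purple boxes H3K4me1 peaks, drawn to scale, and black bars are the genes. At Spry4 green boxes appear in 2 lists, Flt3-ITD/NUP98-HOXD13 and NUP98-HOXD13, and purple boxes are most numerous in NUP98-HOXD13; at Spred1 all 6 lists share the promoter, a region 15.7 kb upstream and a region 24.6 kb downstream.

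The remaining genes varied less in H3K27ac. Spry1 held between 5 and 7 H3K27ac regions, Spry2 between 2 and 4, Spred2 between 5 and 7, and Etv5 between 1 and 3. In H3K4me1, Spry1 held 18 in Flt3-ITD/NUP98-HOXD13, 16 in NUP98-HOXD13, 16 in Flt3-ITD/Runx1-het, 13 in Runx1-het, 17 in Flt3-ITD and 9 in WT. Spred2 held 11 in Runx1-het and 14 to 18 in the other mutants, against 9 in WT. Spry2 held 10 in Flt3-ITD and between 3 and 6 elsewhere. Etv5 held between 8 and 13.

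Each mutant was then set against WT, and each double mutant against its single mutant, over all regions of the 10 genes. Gained regions were held by the list named first and missing from the other, and lost regions were the opposite. These 5 comparisons with WT share the WT list. The feedback genes as a group stayed close to the background in H3K27ac and leaned to gains in H3K4me1, where the background leaned the same way in 4 of the 5.

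For H3K27ac, Flt3-ITD gained 12 and lost 17 of the 57 regions in either list, 21.1% and 29.8%, against 27.6% gained and 30.4% lost over all regions. NUP98-HOXD13 gained 18 and lost 21 of 63 against WT, 28.6% and 33.3%, where all regions gave 24.4% and 34.5%. Runx1-het gained 7 and lost 19 of 52 against WT, 13.5% and 36.5%, beside 23.7% and 36.0%. Flt3-ITD/NUP98-HOXD13 gained 19 and lost 22 of 64 against WT, 29.7% and 34.4%, beside 26.9% and 31.7%. Flt3-ITD/Runx1-het gained 16 and lost 19 of 61 against WT, 26.2% and 31.1%, beside 33.1% and 28.5%. Losses thus outnumbered gains in all 5 comparisons with WT. Lists cut to the same number of strongest peaks (31978 for H3K27ac, 72682 for H3K4me1) turned this for 3 of them, with gains making up 61.3% of the changed regions in Flt3-ITD/NUP98-HOXD13, 59.3% in NUP98-HOXD13 and 61.9% in Flt3-ITD. In Runx1-het, gains and losses were then equal in number. At a −log10 q of at least 5 gains made up 71.4 to 83.3% of the changed regions in the 5 comparisons with WT, except NUP98-HOXD13 with 44.4%. For both alternatives, here and below, the shares of gains were computed at the feedback genes alone. No share over all regions stands beside them, so the turn is not shown to be particular to these genes.

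Between mutants, Flt3-ITD/NUP98-HOXD13 gained 12 and lost 12 of 54 H3K27ac regions against NUP98-HOXD13, 22.2% each, where all regions gave 24.8% and 18.9%. Flt3-ITD/Runx1-het gained 20 and lost 11 of 53 against Runx1-het, 37.7% and 20.8%, beside 37.6% and 20.5%. Of those 20 gains, 13 were at Dusp5. With equal-length lists 47.6% of the changed regions were gains in that comparison, against 64.5% with the full lists.

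For H3K4me1, gains outnumbered losses in all 5 comparisons with WT. Flt3-ITD gained 65 and lost 25 of 151 regions, 43.0% and 16.6%, against 40.5% and 23.7% over all regions. NUP98-HOXD13 gained 71 and lost 33 of 157, 45.2% and 21.0%, beside 39.7% and 28.4%. Runx1-het gained 52 and lost 39 of 138, 37.7% and 28.3%, beside 31.9% and 33.0%. Flt3-ITD/NUP98-HOXD13 gained 68 and lost 32 of 154, 44.2% and 20.8%, beside 41.7% and 23.6%. Flt3-ITD/Runx1-het gained 66 and lost 37 of 152, 43.4% and 24.3%, beside 48.6% and 23.0%. The WT H3K4me1 list was among the 2 shortest. With equal-length lists gains made up 54.9% of the changed regions in Flt3-ITD/NUP98-HOXD13, 56.4% in NUP98-HOXD13, 57.6% in Runx1-het and 56.0% in Flt3-ITD. They made up 45.9% in Flt3-ITD/Runx1-het, where the direction turned. At a −log10 q of at least 5 they made up 32.4% in Flt3-ITD/NUP98-HOXD13, 5.41% in NUP98-HOXD13, 26.3% in Flt3-ITD/Runx1-het, 45.2% in Runx1-het and 51.4% in Flt3-ITD. The part of list length and of peak significance in the split was not tested.

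Against its single mutant, Flt3-ITD/NUP98-HOXD13 gained 44 and lost 46 of 168 H3K4me1 regions, 26.2% and 27.4%, beside 32.1% and 25.1% over all regions. Of the 46 losses, 14 were at Spry4. Flt3-ITD/Runx1-het gained 63 and lost 47 of 162 against Runx1-het, 38.9% and 29.0%, beside 48.6% and 21.8%, with 17 of the gains at Dusp5. Equal-length lists gave 39.6% gains among the changed regions there, so that direction turned as well.

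**Figure D5:**
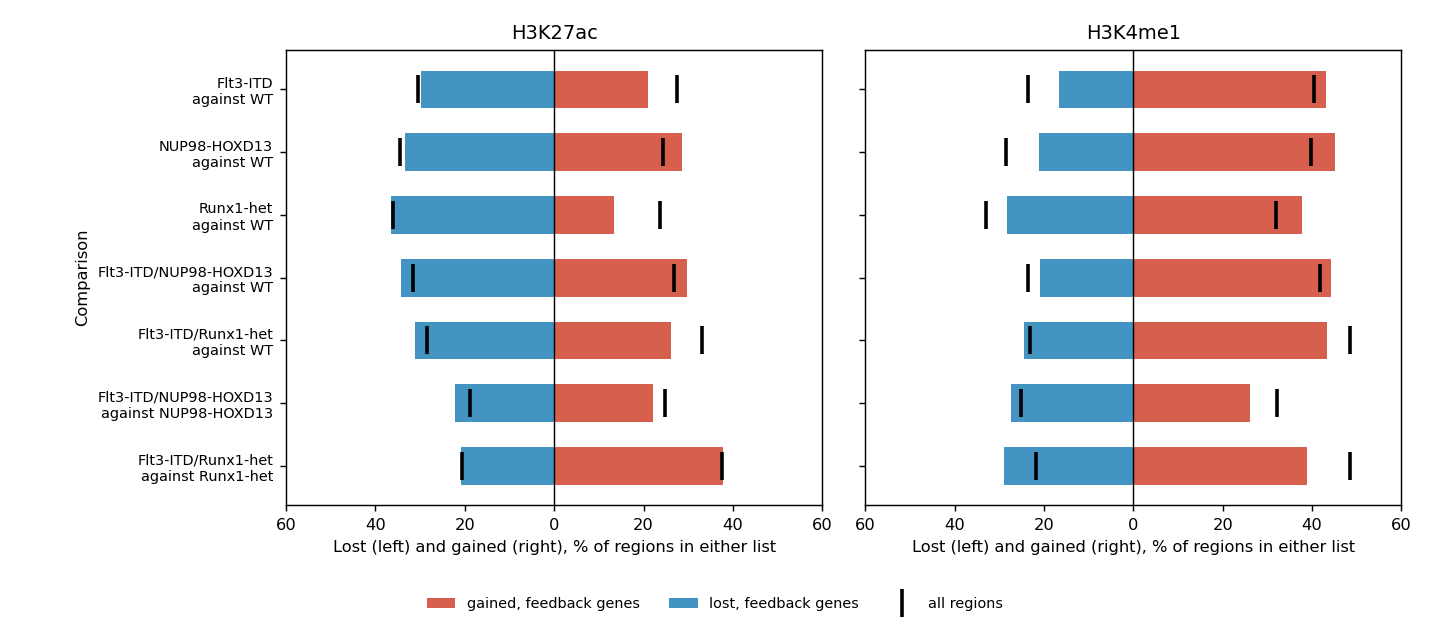
Share of the H3K27ac (left panel) and H3K4me1 (right panel) regions in either list that were gained (red, to the right) or lost (blue, to the left) at the feedback genes, for the 7 comparisons; black ticks give the same shares over all regions of the mark. In H3K27ac the widest gap is for gains in Runx1-het against WT, 13.5% beside 23.7%; in H3K4me1 all 5 comparisons with WT reach further right than left.

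Regions that followed a genotype across lists were few. In H3K27ac, 1 of 92 regions was in all 3 lists with Flt3-ITD and in no other, 28.2 kb upstream of Dusp5 (chr19:53500656-53501225), and 0.702% of all regions had that pattern. Its fold enrichment was 5.01 in the Flt3-ITD list, 3.22 in the Flt3-ITD/NUP98-HOXD13 list and 2.44 in the Flt3-ITD/Runx1-het list. No region at these genes met the pattern with equal-length lists. The fusion pattern was met by 2 regions, the Spry4 promoter and a region 19.9 kb downstream of Spry1 (chr3:37659169-37660838; 4.83 in Flt3-ITD/NUP98-HOXD13 and 4.12 in NUP98-HOXD13), beside 1.39% of all regions. The reverse, a region in every list but the fusion lists, was met by 1 region 12.5 kb upstream of Spred1 (chr2:117108442-117109364), beside 0.439% of all regions. Its fold enrichment was 3.70 in Flt3-ITD/Runx1-het, 3.18 in Flt3-ITD, 4.31 in Runx1-het and 5.0 in WT. No region followed Runx1-het in either direction, patterns that 0.573% and 0.280% of all regions met. None was in every list without Flt3-ITD and in no other, a pattern of 0.101% of all regions.

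In H3K4me1, 3 of 266 regions followed the fusion, beside 1.77% of all regions. They lay in an Etv5 intron 3.5 kb downstream of its start site (chr16:22432905-22433191) and 9.6 and 17.4 kb downstream of the Spry4 start site. Another 3 followed Runx1-het (0.769% of all), 1.4 kb upstream of Spred2 (chr11:19922730-19923294) and 13.5 and 29.5 kb downstream of Dusp5 (chr19:53542507-53542779 and chr19:53558448-53558786). The last 3 were in every list except the Runx1-het ones (0.507% of all). Of these, 2 were assigned to Etv5, 30.4 and 32.3 kb upstream in introns of the diacylglycerol kinase gene Dgkg (chr16:22469580-22470575 and chr16:22471707-22472317), and 1 lay in a Spred1 intron 6.1 kb downstream (chr2:117127451-117128081). No H3K4me1 region was in all Flt3-ITD lists alone (0.855% of all), in every list without Flt3-ITD alone (0.135%), or in every list without the fusion alone (0.378%).

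Most regions were either shared by all lists or seen in 1. All 6 lists held 21 of the 92 H3K27ac regions (22.8%, beside 19.3% of all regions), and 44 (47.8%, beside 52.6%) were in a single list. For H3K4me1 the counts were 28 of 266 in all 6 (10.5%, beside 9.97%) and 124 in a single list (46.6%, beside 49.3%).

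The share of H3K4me1 peaks that overlapped an H3K27ac peak of the same genotype, a way to separate acetylated from unacetylated enhancers, was lower at these genes than over all peaks in each list, by less than the counting interval in every list but Flt3-ITD. It was 28.3% in Flt3-ITD/NUP98-HOXD13 (45 of 159, 95% Wilson interval 21.9 to 35.8%), 23.5% in NUP98-HOXD13 (40 of 170), 29.0% in Flt3-ITD/Runx1-het (47 of 162), 22.6% in Runx1-het (30 of 133), 24.1% in Flt3-ITD (38 of 158, interval 18.1 to 31.3%) and 25.4% in WT (29 of 114). Over all H3K4me1 peaks it was 32.8% in Flt3-ITD/NUP98-HOXD13, 29.9% in NUP98-HOXD13, 29.6% in Flt3-ITD/Runx1-het, 29.9% in Runx1-het, 31.9% in Flt3-ITD and 26.1% in WT. Wilson intervals here cover counting error only. Spry1 had shares between 33.3% and 50% in the 6 lists. Spry4 had 1 such peak of 20 in NUP98-HOXD13 and none in the other lists, and Etv5 had 1 of 13 in Flt3-ITD/NUP98-HOXD13, 1 of 10 in WT and none in the rest.

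Genes that act with the feedback genes were taken from lists drawn up by function, with earlier results of these data known. Of 28 genes of the RAS-ERK cascade, from receptors and adaptors to kinases and the ELK factors they phosphorylate, H3K27ac marked the promoters of 28 in Flt3-ITD/NUP98-HOXD13, 27 in NUP98-HOXD13, 27 in Flt3-ITD/Runx1-het, 25 in Runx1-het, 24 in Flt3-ITD and 23 in WT. The shares of all protein-coding genes also differed between lists. They were 45.5% in Flt3-ITD/NUP98-HOXD13, 45.2% in NUP98-HOXD13, 46.2% in Flt3-ITD/Runx1-het, 39.4% in Runx1-het, 43.0% in Flt3-ITD and 39.4% in WT. The regions of the 28 cascade genes gained and lost 72 and 21 of 154 in Flt3-ITD/Runx1-het against WT, 46.8% and 13.6%, beside 33.1% and 28.5% over all regions. Ksr1, a scaffold that holds RAF, MEK and ERK together, accounted for 30 gains and 0 losses there, the ETS factor gene Elk3 for 12 and 1, and the receptor gene Kit for 8 and 1. Without any test, this describes 1 pair of lists. Against WT, the cascade genes gained 37 and lost 26 of 119 in Flt3-ITD, 31.1% and 21.8%, beside 27.6% and 30.4% over all regions. In NUP98-HOXD13 they gained 32 and lost 24 of 114, 28.1% and 21.1%, beside 24.4% and 34.5%. In Runx1-het they gained 36 and lost 30 of 118, 30.5% and 25.4%, beside 23.7% and 36.0%. In Flt3-ITD/NUP98-HOXD13 they gained 46 and lost 22 of 128, 35.9% and 17.2%, beside 26.9% and 31.7%.

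Other members of the DUSP, Sprouty, Spred and ETV families were marked at the promoter in 7 of 9 in Flt3-ITD/NUP98-HOXD13, 7 in NUP98-HOXD13, 5 in Flt3-ITD/Runx1-het, 6 in Runx1-het, 6 in Flt3-ITD and 5 in WT. Of all genes, between 39.4% (Runx1-het and WT) and 46.2% (Flt3-ITD/Runx1-het) were marked. These 9 genes gained 12 and lost 6 of 30 H3K27ac regions in NUP98-HOXD13 against WT, beside 24.4% gained and 34.5% lost over all regions. Dusp1, which encodes a phosphatase of stress kinases and ERK, held 7 of the 12 gains and 2 of the 6 losses. Against WT these 9 genes gained 28% and lost 32% in Flt3-ITD, beside 27.6% and 30.4% over all regions. In Runx1-het they gained 18.2% and lost 36.4%, beside 23.7% and 36.0%. In Flt3-ITD/NUP98-HOXD13 they gained 28% and lost 16%, beside 26.9% and 31.7%. In Flt3-ITD/Runx1-het they gained 25% and lost 29.2%, beside 33.1% and 28.5%. Of 14 other ERK-induced genes, 9 were marked in Flt3-ITD/NUP98-HOXD13, 11 in NUP98-HOXD13, 7 in Flt3-ITD/Runx1-het, 7 in Runx1-het, 7 in Flt3-ITD and 8 in WT. The shares of all genes were again between 39.4% and 46.2%. The H3K27ac regions of these 14 genes gained 13 and lost 11 of 51 in Flt3-ITD/NUP98-HOXD13 against WT, 25.5% and 21.6%, beside 26.9% and 31.7% over all regions. The early response gene Ier3, with 0 gains, held 6 of those 11 losses. In NUP98-HOXD13 against WT they gained 19 and lost 9 of 57, 33.3% and 15.8%, beside 24.4% and 34.5%. The AP-1 gene Fos held 4 of those 19 gains and 1 loss, and Ier3 held 0 gains and 5 losses. Against WT the 14 genes gained 17.4% and lost 21.7% in Flt3-ITD, beside 27.6% and 30.4% over all regions. In Runx1-het they gained 20.8% and lost 20.8%, beside 23.7% and 36.0%. In Flt3-ITD/Runx1-het they gained 20.8% and lost 20.8%, beside 33.1% and 28.5%.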

How the data were processed

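H3K27ac and H3K4me1 were mapped in 39 samples of 6 genotypes, and 1 input sample was not analysed. Per the submitters' processing notes, the processing used BWA and MACS2 and the build mm10 (GRCm38), and no version or setting is given there. The authors deposited 1 narrowPeak list per genotype and mark, 12 in all, each named in the labels of all samples of its group and so taken as pooled over them, and replicates could not be compared. In each deposited list, MACS2 gave a score of up to 1000, a fold enrichment over control as a ratio, and the −log10 p-value and −log10 q-value of each peak. The lowest −log10 q in any list was 0.258, so the lists hold weak peaks, and the number of reads behind them is unknown.

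Peaks of a mark were merged over the 6 lists where they shared at least 1 bp. Each merged region went to the gene whose start site was nearest among 41408 start sites of protein-coding transcripts in GENCODE mouse release 21, on the same build, and kept if its nearest edge lay within 50 kb. A promoter peak lay within 1 kb of a start site. A list held a region if 1 of its peaks overlapped it. Percentiles were taken within a list. Shares have 95% Wilson intervals, which cover counting error only. Gains and losses planted in the WT H3K27ac list of 43363 peaks were recovered on simulated data, 60 of 60 gains and 1500 of 1500 losses. The changed copy was compared with the same list, and gains were planted where it had no peak. This checks the overlap counting and cannot show how well changes between separately called lists are found. Distal regions are named by the most lists and then the highest mean percentile for each gene and mark, and all regions that follow a genotype are named. The 3 genes nearest in the promoter percentile among all peaks of a list are named for Spry4 and Etv5. The genes and gene lists were chosen with earlier results of these data known. Alternatives were equal-length lists, a −log10 q of at least 5, other overlap rules, other distances and other promoter ranges. Python 3.11.15, numpy 2.4.6, pandas 2.3.3, scipy 1.17.1 and matplotlib 3.10.9 were used.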

Additional observations from a re-analysis of the deposited data

Results flagged for a closer look

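The change in the number of regions with Flt3-ITD was computed on 3 backgrounds, as Flt3-ITD minus WT, Flt3-ITD/NUP98-HOXD13 minus NUP98-HOXD13 and Flt3-ITD/Runx1-het minus Runx1-het. At 7 genes it had opposite signs on different backgrounds for 1 or both marks. With 1 list per genotype none of these differences was tested. The same count over all genes was not made, so the 7 genes are not set against a background.

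At Dusp5 the number of H3K27ac regions changed by 13 on the Runx1-het background and by -2 on the NUP98-HOXD13 background, a gap of 15. At Spred1 it changed by 3 on the NUP98-HOXD13 background and by -3 on the WT background, a gap of 6. Spred2 had a gap of 3, with 2 on the Runx1-het background and -1 on the NUP98-HOXD13 background. Etv5 had a gap of 2, with 1 on the NUP98-HOXD13 and Runx1-het backgrounds and -1 on the WT background.

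For H3K4me1, the widest gap was at Spry4, 13, with a change of 2 on the WT background and -11 on the NUP98-HOXD13 background. At Spred1 the gap was 12, with 4 on the NUP98-HOXD13 background and -8 on the Runx1-het background. At Spred2 it was also 12, with 8 on the WT background and -4 on the NUP98-HOXD13 background. Dusp6 had a gap of 5, with 3 on the WT background and -2 on the Runx1-het background. Spry2 had a gap of 5 too, with 4 on the WT background and -1 on the Runx1-het background. For Etv5 it was 5 as well, with 3 on the WT background and -2 on the NUP98-HOXD13 background. The H3K27ac lists held 42677 peaks in Flt3-ITD/Runx1-het and 31978 in Runx1-het, and 92.8% of the H3K4me1 peaks in NUP98-HOXD13 had a −log10 q under 5. The part of these measures in the gaps was not tested.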

How the results depend on the processing

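No paired analysis was possible because each group was deposited as 1 pooled list. Shares of gains under the alternatives were computed at the feedback genes alone, with no share over all regions beside them. The most severe alternative was a −log10 q of at least 5. The share of gains among changed H3K27ac regions became 75.0% for Flt3-ITD, 83.3% for Runx1-het, 75.0% for Flt3-ITD/NUP98-HOXD13 and 71.4% for Flt3-ITD/Runx1-het against WT, and 81.8% and 42.9% for the double mutants with NUP98-HOXD13 and Runx1-het against their single mutants. For H3K4me1 it became 51.4% for Flt3-ITD, 5.41% for NUP98-HOXD13, 45.2% for Runx1-het, 32.4% for Flt3-ITD/NUP98-HOXD13 and 26.3% for Flt3-ITD/Runx1-het against WT, and 92.0% and 27.3% for the double mutants with NUP98-HOXD13 and Runx1-het against their single mutants. At that threshold the H3K27ac regions that followed Flt3-ITD, the fusion or its absence fell to 0 each, and the H3K4me1 regions to 0 for the fusion, 1 for Runx1-het and 0 for its absence. H3K4me1 promoters were 0 in the mutant lists and 1 in WT. The share of the H3K4me1 list at the feedback genes was 0.116% in NUP98-HOXD13 and 0.192% in WT. H3K4me1 peaks with H3K27ac made up 36.7% in Flt3-ITD/NUP98-HOXD13, 37.5% in NUP98-HOXD13, 39.3% in Flt3-ITD/Runx1-het, 32.6% in Runx1-het, 17.8% in Flt3-ITD and 14.6% in WT. Where H3K27ac had to cover at least 0.5 of the H3K4me1 peak, these shares were 20.1% in Flt3-ITD/NUP98-HOXD13, 17.6% in NUP98-HOXD13, 15.8% in Flt3-ITD and 21.6% in Flt3-ITD/Runx1-het.

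With equal-length lists, gains among changed H3K27ac regions made up 61.9% for Flt3-ITD, 50% for Runx1-het and 61.3% for Flt3-ITD/NUP98-HOXD13 against WT. For H3K4me1 they made up 56.0% for Flt3-ITD, 56.4% for NUP98-HOXD13, 54.9% for Flt3-ITD/NUP98-HOXD13 and 45.9% for Flt3-ITD/Runx1-het against WT, and 39.6% for that double mutant against its single mutant. The H3K27ac regions that followed Flt3-ITD fell to 0, 1 H3K4me1 region was in every list without Flt3-ITD and no other, and 1 H3K4me1 promoter was marked in Flt3-ITD/Runx1-het. Within 2 kb, H3K4me1 promoters were 6 in Flt3-ITD/NUP98-HOXD13, 4 in NUP98-HOXD13, 5 in Runx1-het and 5 in Flt3-ITD. Within 100 kb, 2 H3K27ac regions followed Flt3-ITD, and for H3K4me1 1 followed Flt3-ITD and 5 the fusion. The share of the list at the feedback genes became 0.194% in Flt3-ITD and 0.217% in WT for H3K27ac, and for H3K4me1 0.237% in Flt3-ITD/NUP98-HOXD13, 0.238% in NUP98-HOXD13, 0.181% in Flt3-ITD/Runx1-het, 0.230% in Runx1-het, 0.225% in Flt3-ITD and 0.211% in WT. The cause of these shifts was not tested. With the other overlap rules, distance from the middle and 100 kb, all 14 shares of gains stayed within the Wilson interval of the full-list share. Several of these intervals span 50%, so staying within them does not show that gains or losses stayed in the majority. For H3K27ac in Flt3-ITD/NUP98-HOXD13 against NUP98-HOXD13 the full-list share was itself 50%.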
